A study of Mus musculus with 8 samples.

Results

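The enzymes that modify and crosslink collagen were followed in undifferentiated pleomorphic sarcoma (UPS) of mice with and without HIF-2α. The 10 genes were taken by symbol from a table of 26667 genes: the lysyl hydroxylases Plod1, Plod2 and Plod3, the prolyl 4-hydroxylase alpha subunits P4ha1, P4ha2 and P4ha3, and the lysyl oxidases Lox, Loxl1, Loxl2 and Loxl3. All 10 passed the filter on low counts, as did 14867 genes of the table over 7 tumours and 14805 over all 8. KP tumours carried Trp53 fl/fl and a further conditional allele, and KPH2 tumours carried the same alleles and Epas1 fl/fl, the conditional allele of the gene for HIF-2α, so both groups share the loss of p53. All mice were of mixed 129/C57BL/6 background, the study used both sexes, and the labels give no age or sex for a single tumour. Tumours arose in hind limb muscle after injection of adenovirus expressing Cre recombinase, so alleles recombine only in infected cells and their progeny, and cells in the same section that were not infected keep Epas1. RNA came from fixed, paraffin-embedded tumour sections, and 1 stranded library depleted of ribosomal RNA was sequenced for each of 4 KP (KP 5 to KP 8) and 4 KPH2 tumours (KPH2 1 to KPH2 4). Comparisons used KP 5 to KP 8 and KPH2 2 to KPH2 4, because the study set aside 1 knockout tumour as a technical outlier and KPH2 1 is the tumour absent from its 7-tumour table. The study's Results and Methods give the group sizes the other way round, so which tumours it compared is inferred from that table. KPH2 1 is shown apart, and the comparisons were repeated with it.

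Collagen chains are hydroxylated in the endoplasmic reticulum before they fold. Prolyl 4-hydroxylases, tetramers of an alpha subunit and the beta subunit encoded by P4hb, convert prolines to hydroxyprolines that stabilise the triple helix, and lysyl hydroxylases convert lysines that later carry sugars or crosslinks; both kinds of enzyme need oxygen, iron and 2-oxoglutarate. Lysyl oxidases are copper enzymes that act outside the cell, where they oxidise lysines of collagen and elastin so that the fibres crosslink. Several of these genes, Plod2, P4ha1, P4ha2, Lox and Loxl2 among them, are known to be induced in hypoxia through HIF transcription factors, and the matrix they build is linked to stiffness and spread of sarcomas.

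The promoters of the prolyl 4-hydroxylase subunits are shown because these 3 genes encode alternative subunits of 1 kind of enzyme and their levels did not run in parallel across the tumours. The sequences are from RefSeq (GRCm38.p6), 5′ to 3′ on the gene's strand, within the 250 bases before the start site and only as far as the first base annotated as part of the gene. Capitals mark the core letters of the hypoxia response element, ACGTG and GCGTG, which read CACGT and CACGC where they lie on the other strand. No matches overlapped in these windows.
P4ha1, chr10:59323046-59323196, plus strand: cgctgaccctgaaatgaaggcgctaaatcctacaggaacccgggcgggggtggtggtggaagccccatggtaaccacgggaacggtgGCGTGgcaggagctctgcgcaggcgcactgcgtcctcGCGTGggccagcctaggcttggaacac
P4ha2, chr11:54100674-54100923, plus strand: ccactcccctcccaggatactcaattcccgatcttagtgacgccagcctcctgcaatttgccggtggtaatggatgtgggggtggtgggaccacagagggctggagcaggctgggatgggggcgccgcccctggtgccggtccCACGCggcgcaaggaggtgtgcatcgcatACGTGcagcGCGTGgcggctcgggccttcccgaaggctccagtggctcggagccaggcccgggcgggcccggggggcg
P4ha3, chr7:100285270-100285488, plus strand: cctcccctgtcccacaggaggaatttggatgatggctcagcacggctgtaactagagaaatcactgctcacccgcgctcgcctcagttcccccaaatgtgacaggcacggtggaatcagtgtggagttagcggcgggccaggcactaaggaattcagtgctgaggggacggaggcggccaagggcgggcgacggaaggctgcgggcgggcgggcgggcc

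Over the full 250 bases, P4ha1 held 3 matches, P4ha2 held 3 and P4ha3 held 0. Of 32851 mouse promoter windows of the same length, 38.6% held at least 1 match and 6.58% at least 3. In P4ha1, 2 of the 3 matches lie in the stretch printed. Among the lysyl hydroxylases, the window of Plod1 held 1 match and that of Plod3 held 4, in a stretch that is also annotated as exon of Znhit1 on the other strand, so it is not printed. The windows of the other members were not used. A match is a run of letters, and no binding was measured.

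Total counts ran from 6463221 to 13155510 per tumour, and every member had at least 52 counts in every tumour. The coefficient of biological variation between tumours of 1 group, as edgeR estimates it from 7 tumours, was 0.313. Epas1 was at 59.2, 83.2, 86.9 and 84.1 CPM (counts per 1e+06 counts of the TMM-scaled library) in KP 5 to KP 8, at 53.4, 37.7 and 42.5 CPM in KPH2 2 to KPH2 4 and at 32.6 CPM in KPH2 1, lower in every KPH2 tumour and not absent (log2 fold change −0.81, adjusted p = 0.0742, edgeR). Epas1 passed the threshold in DESeq2 on the same tumours (adjusted p = 0.0115) and in edgeR without KP 5 (adjusted p = 0.0442). Summed skeletal muscle markers, 18 genes, ran from 1785.5 to 3256.4 CPM in KP and from 4111.1 to 18872.2 CPM in KPH2 2 to KPH2 4, with 1461.9 CPM in KPH2 1. The 8 mesenchymal markers, the lineage of these sarcomas, summed to between 4145.5 and 5686.0 CPM in KP and between 3365.4 and 3729.0 CPM in KPH2 2 to KPH2 4. They did not move together: 5 had a negative and 3 a positive log2 fold change, where 52% of all genes were negative. Only 1 of them passed the adjusted threshold of edgeR, lower in KPH2, where 0.72% of all genes did. Summed macrophage markers (6 genes) ran from 1126.4 to 2227.1 CPM in KP and 683.1 to 1211.5 CPM in KPH2 2 to KPH2 4, and endothelial markers (5 genes) from 230.2 to 450.0 and from 195.8 to 229.9 CPM. Adipocyte markers (5 genes) stayed at or under 24.7 CPM in sum, markers of bone and cartilage (6 genes) at or under 228.7 CPM, and no marker of any list was at 0 in all libraries. The ribosomal RNA precursor Rn45s took 1.08% to 2.79% of counts in KP and 3.58% to 9.83% in KPH2 tumours. The sums of muscle and mesenchymal markers and the share of Rn45s did not overlap between KP and KPH2 2 to KPH2 4, the endothelial sums came within 1 CPM of each other and the macrophage sums overlapped. By the mean log2 CPM of each list, in which every marker counts alike, muscle markers overlapped (5.81 in KP 5 and 5.68 in KPH2 4), as did endothelial markers (5.28 in KP 5 and 5.34 in KPH2 2). Marker by marker, 7 of 18 muscle markers were higher and 2 of 8 mesenchymal, 0 of 6 macrophage and 2 of 5 endothelial markers lower in KPH2 2 to KPH2 4 with no overlap, where 8.73% of all genes were higher and 8.15% lower in that way. The part of these cell types in the results was not tested. The mean over muscle markers ran from 4.36 to 5.81 in KP and from 5.68 to 8.11 in KPH2 2 to KPH2 4. The muscle score thus ran largely with genotype, and a fit that holds both cannot tell them apart. With the muscle score as a covariate, the log2 differences of Plod3, P4ha3, Lox and Loxl3 were −0.36, −3.36, −1.06 and −0.83, and 0 of the 10 genes passed the adjusted threshold of edgeR in a fit that called 0.0269% of all genes. In bulk tissue, fewer cells of a type cannot be told apart from less RNA per cell.

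Most of the 10 enzymes had lower estimates in KPH2 than in KP tumours, from a 0.3-fold level for P4ha3 to a 0.902-fold level for Plod2, and none passed the adjusted threshold of edgeR, while DESeq2 called 3. Over the 7 tumours 9 of the 10 had a negative log2 fold change (KPH2 minus KP), where 52% of all genes tested did. P4ha2 was the exception. The median of the 10 log2 fold changes was −0.53, where the median of all genes was −0.02. The quasi-likelihood test of edgeR, with p-values adjusted by Benjamini-Hochberg over every gene tested, called 0 of 10 at an adjusted p under 0.05, against 1.96% of all genes, and the smallest adjusted p among them was 0.115 (Loxl3). At an unadjusted p under 0.05 there were 4, all lower in KPH2: Plod3, P4ha3, Lox and Loxl3, where 9.26% of all genes met that rule in that direction. In the same 4 genes every KPH2 tumour of the 3 lay below every KP tumour, where 8.15% of all genes did so. DESeq2 on the same tumours called 3 of the 10 lower (P4ha3, Lox and Loxl3, adjusted p = 0.0339, 0.0463 and 0.0333), where it called 3.43% of its genes lower. With KPH2 1 included, 9 of 10 were again negative (49.1% of all genes), 0 of 10 passed the adjusted threshold in edgeR, as did 0.00675% of all genes, and 4 had an unadjusted p under 0.05 and were lower (Plod1, Plod3, Lox and Loxl3, where 8.02% of all genes were). Over these 8 tumours Plod3, Lox and Loxl3, 3 of 10, showed no overlap, where 4.39% of all genes did so. DESeq2 over all 8 tumours called 1, Lox (adjusted p = 0.0366, with 2.38% of genes called lower). Leaving out KPH2 3 brought the genes with no overlap to 7, adding Plod1, Loxl1 and Loxl2, where 12.7% of all genes did so. Leaving out KPH2 4 brought the genes lower at an unadjusted p under 0.05 to 2, where 6.73% of all genes were.

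**Figure D1:**
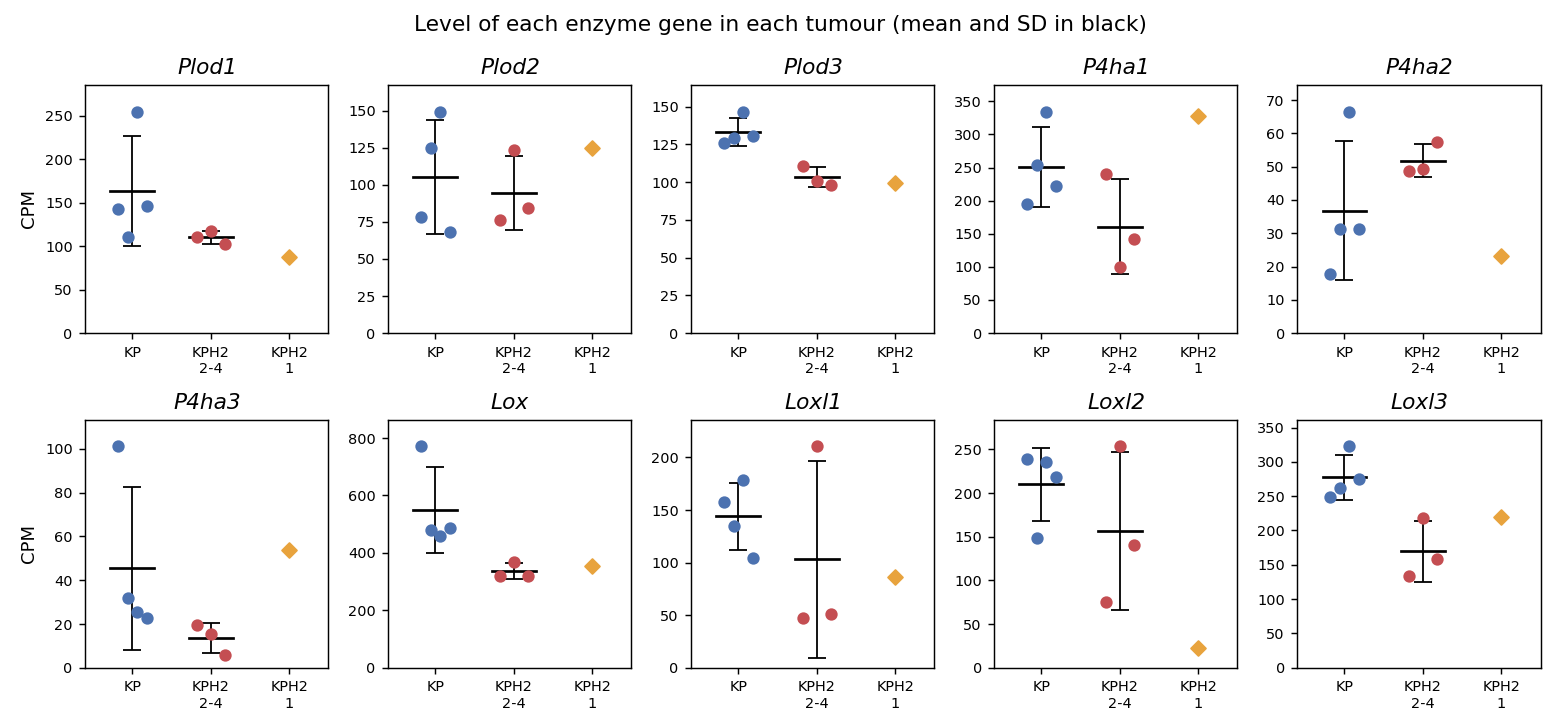
Level in CPM (vertical axis, from 0) of each of the 10 genes in each tumour, with 1 panel per gene. Points are tumours, the long bar is the group mean, the error bars are 1 SD, and the diamond is KPH2 1. The 3 KPH2 tumours lie below all 4 KP tumours for Plod3, P4ha3, Lox and Loxl3, and KPH2 1 does too except for P4ha3.

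Among the lysyl hydroxylases, Plod3 separated the groups and Plod2 did not. Plod3 (Entrez Gene 26433, chr5:136987019-136996646 of GRCm38.p6) encodes an enzyme that also transfers sugars to hydroxylysine. Plod3 was at 126.1, 129.2, 146.8 and 130.6 CPM in KP 5 to KP 8 and at 110.6, 100.8 and 98.1 CPM in KPH2 2 to KPH2 4. The groups did not overlap, and KPH2 1 at 99.6 CPM lay with the other KPH2 tumours. The means were 133.1 ± 9.27 CPM (SD, n = 4) and 103.2 ± 6.62 CPM (SD, n = 3), a 0.774-fold level. Its log2 fold change was −0.37 (standard error, SE, 0.13, 95% interval −0.66 to −0.08, adjusted p = 0.185, edgeR), and a 2-sided exact permutation test of mean log2 CPM gave p = 0.0286, the smallest that the 35 splits of 7 tumours allow. This was the member with the narrowest range over the 8 tumours, 1.5-fold from lowest to highest. Plod3 overlaps Znhit1 on the opposite strand, and the strand setting of the counting is not given in the sources used here.

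Plod2 (Entrez Gene 26432, chr9:92539636-92608428) encodes the enzyme that hydroxylates lysines in the telopeptides, the sites where crosslinks form. Plod2 was at 78.4, 124.8, 149.6 and 68.1 CPM in KP 5 to KP 8, at 76.5, 123.3 and 84.6 CPM in KPH2 2 to KPH2 4, and at 124.8 CPM in KPH2 1. Each group held tumours at the low and at the high end, and all KPH2 values lay within the KP range. The log2 fold change was −0.15 with a 95% interval of −0.85 to 0.55 (adjusted p = 0.851, edgeR; exact permutation p = 0.771), so changes of nearly 1 log2 unit in the lower direction lie within the interval. Its sign turned when KP 7 was left out (0.07) and when the muscle score was a covariate (0.09).

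Plod1 (Entrez Gene 18822, chr4:147909753-147936776), the lysyl hydroxylase of the helical part of the chain, was at 142.4, 110.4, 255.0 and 146.3 CPM in KP and at 110.0, 118.0 and 103.0 CPM in KPH2 2 to KPH2 4. KP 6 lay among the KPH2 tumours, KP 7 stood well above all others, and KPH2 1 was the lowest of the 8 at 87.7 CPM. On the log2 scale the difference was −0.57 (adjusted p = 0.317, edgeR; exact permutation p = 0.114), it was −0.27 without KP 7, and with KPH2 1 included it was −0.64 (unadjusted p = 0.028 and adjusted p = 0.283, edgeR).

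The prolyl 4-hydroxylase subunits did not move together. P4ha1 (Entrez Gene 18451, chr10:59323197-59373304), the most widely expressed alpha subunit, was at 194.2, 253.5, 334.6 and 222.5 CPM in KP 5 to KP 8 and at 240.2, 100.1 and 141.4 CPM in KPH2 2 to KPH2 4. KPH2 3 and KPH2 4 lay below every KP tumour, KPH2 2 lay within the KP range, and KPH2 1 at 328.2 CPM was second only to KP 7. KPH2 minus KP was −0.65 on the log2 scale over 7 tumours (SE 0.31, adjusted p = 0.327, edgeR; exact permutation p = 0.143) and −0.31 over all 8 (adjusted p = 0.732, edgeR).

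P4ha2 (Entrez Gene 18452, chr11:54100924-54131668), an alternative alpha subunit of the same tetramer, was the member that was not lower. It was at 17.7, 31.3, 66.6 and 31.4 CPM in KP 5 to KP 8 and at 48.8, 49.3 and 57.5 CPM in KPH2 2 to KPH2 4. Those KPH2 tumours were above KP 5, KP 6 and KP 8 and below KP 7, while KPH2 1 at 23.2 CPM was below all but KP 5. The estimate lay above 0, at 0.50 log2 units (SE 0.39, 95% interval −0.39 to 1.40, adjusted p = 0.556, edgeR; exact permutation p = 0.257).

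P4ha3 (Entrez Gene 320452, chr7:100285489-100319701), an alpha subunit usually expressed at low levels in adult tissue, had the widest range of the 10. It was 16.8-fold over the 8 tumours by log2 CPM, which includes a prior count. P4ha3 was at 101.2, 32.1, 25.4 and 22.8 CPM in KP 5 to KP 8 and at 19.5, 15.5 and 5.86 CPM in KPH2 2 to KPH2 4. KP 5 stood far above the other KP tumours, KPH2 4 far below the other KPH2 tumours (52 counts), and KPH2 1 at 53.9 CPM was above all KP tumours but KP 5. The means were 45.4 ± 37.4 CPM (SD, n = 4) and 13.6 ± 7.03 CPM (SD, n = 3), a fitted 0.3-fold level, with a log2 fold change of −1.74 (SE 0.64, 95% interval −3.21 to −0.27, adjusted p = 0.208, edgeR; exact permutation p = 0.0571). Without KP 5 it was −0.95 (adjusted p = 0.255, edgeR), and with KPH2 1 included −0.94 (adjusted p = 0.57, edgeR).

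By the mean absolute difference in log2 CPM over the 8 tumours, each gene centred on its own mean, the 3 genes most like P4ha3 were Fam26e (0.26), 5930403L14Rik (0.28) and Col8a2 (0.30). Col8a2 encodes a chain of type VIII collagen. It was at 50.1, 12.2, 8.45 and 6.79 CPM in KP 5 to KP 8, at 8.01, 12.3 and 2.48 CPM in KPH2 2 to KPH2 4 and at 26.4 CPM in KPH2 1. As with P4ha3, KP 5 was highest, KPH2 1 next and KPH2 4 lowest.

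Among the lysyl oxidases, Lox and Loxl3 separated the groups, while for Loxl1 and Loxl2 the KPH2 tumours spread from below to above the KP range. Lox (Entrez Gene 16948, chr18:52516060-52529867) encodes the founding enzyme of the family. Lox was at 771.3, 478.6, 459.3 and 486.2 CPM in KP 5 to KP 8 and at 320.3, 369.1 and 319.6 CPM in KPH2 2 to KPH2 4. All KPH2 tumours, KPH2 1 at 356.1 CPM included, were below all KP tumours. The means were 548.9 ± 148.7 CPM (SD, n = 4) and 336.3 ± 28.4 CPM (SD, n = 3), a 0.612-fold level. The fitted log2 difference was −0.71 (SE 0.22, 95% interval −1.20 to −0.22, adjusted p = 0.136, edgeR), the exact permutation p was 0.0286, and without KP 5, the highest tumour, it was −0.49 (adjusted p = 0.117, edgeR). An antisense gene, AC161119.1, overlaps Lox.

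Loxl3 (Entrez Gene 16950, chr6:83034205-83052566), a lysyl oxidase with scavenger receptor domains, was at 249.0, 262.0, 322.7 and 275.4 CPM in KP 5 to KP 8 and at 133.0, 218.9 and 157.8 CPM in KPH2 2 to KPH2 4. KPH2 1 at 219.2 CPM and KPH2 3 came nearest to KP, and no KPH2 tumour reached the lowest KP tumour. The log2 fold change was −0.71 (SE 0.20, 95% interval −1.16 to −0.26, adjusted p = 0.115, edgeR; exact permutation p = 0.0286), a 0.612-fold level, and −0.61 with KPH2 1 included (adjusted p = 0.218, edgeR). Htra2 overlaps Loxl3 on the opposite strand.

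Loxl2 (Entrez Gene 94352, chr14:69608692-69695834), an oxidase that also acts on basement membrane collagen IV, was at 238.5, 149.0, 235.3 and 217.9 CPM in KP 5 to KP 8 and at 74.9, 253.5 and 141.0 CPM in KPH2 2 to KPH2 4. KPH2 3 was the highest tumour of all, KPH2 2 and KPH2 4 were below every KP tumour, and KPH2 1 was the lowest at 22.5 CPM (281 counts). By log2 CPM, which includes a prior count, the range over the 8 tumours was 11.2-fold. The log2 fold change was −0.43 over 7 tumours (SE 0.38, adjusted p = 0.612, edgeR; exact permutation p = 0.343) and −0.77 over all 8 (adjusted p = 0.579, edgeR). Gm27177, an antisense gene, overlaps Loxl2.

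Loxl1 (Entrez Gene 16949, chr9:58287723-58313212), the oxidase tied to elastic fibre formation, was at 158.0, 134.5, 178.9 and 104.8 CPM in KP 5 to KP 8 and at 47.0, 210.6 and 51.3 CPM in KPH2 2 to KPH2 4. KPH2 3 again stood above every KP tumour, while KPH2 2, KPH2 4 and KPH2 1 (86.1 CPM) were below all of them. The log2 fold change was −0.49 (SE 0.52, 95% interval −1.69 to 0.71, adjusted p = 0.683, edgeR; exact permutation p = 0.286). Without KPH2 3, which leaves 2 KPH2 tumours, it was −1.55 and passed the threshold (adjusted p = 0.0384, edgeR, with 0.32% of all genes called lower in that fit).

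**Figure D2:**
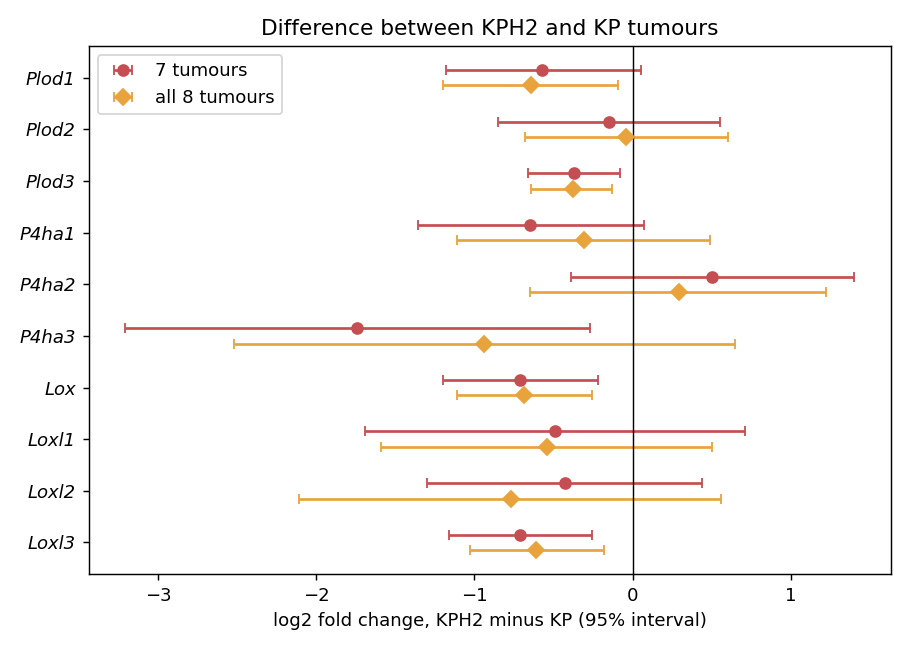
Log2 fold change (KPH2 minus KP) of each gene with its 95% interval from edgeR, for 7 tumours (circles) and all 8 (diamonds). Over 7 tumours the whole interval lies below 0 for Plod3, P4ha3, Lox and Loxl3, and P4ha2 is the one gene whose estimate lies above 0.

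Scaled by transcript length, Lox had the highest mean in KP and in KPH2 2 to KPH2 4. In KPH2 1, P4ha1 (79.8 CPM per kb) was above Lox (74.5). In KP tumours Lox was at 114.9 ± 31.1 CPM per kb (SD, n = 4), above the next gene, Loxl2 (69.1 ± 13.7), in 4 of 4 tumours. Loxl2 and Loxl3 (67.7 ± 7.85) could not be ranked, since Loxl2 was higher in 2 of 4 tumours. P4ha1 followed at 61.1 ± 14.7 CPM per kb, above Plod1 (50.4 ± 19.4) in 4 of 4 tumours. Plod1 and Loxl1 (43.7 ± 9.66) changed places between tumours, as did P4ha3 (19.2 ± 15.9) and P4ha2 (15.8 ± 8.98) at the low end. Plod3 (40.6 ± 2.83) was above Plod2 (28.3 ± 10.4) in 4 of 4 tumours. In KPH2 2 to KPH2 4, Lox was at 70.4 ± 5.93 CPM per kb (SD, n = 3) and above Loxl2 in 2 of 3 tumours, and P4ha2 (22.3 ± 2.09) was above P4ha3 (5.78 ± 2.98) in 3 of 3.

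In the P4HA family the share of P4ha2 differed in description between KP and KPH2 2 to KPH2 4, with no test. P4ha2 made up 7.77%, 15.1%, 23.7% and 17.5% of the summed level of the 3 alpha subunits, per kb, in KP 5 to KP 8 and 23.9%, 40.7% and 40.1% in KPH2 2 to KPH2 4. The lowest KPH2 tumour was just above the highest KP tumour, and KPH2 1 at 8.84% lay with KP 5. P4ha3 took 43.9% in KP 5 and 8.9% to 15.3% in the other KP tumours, against 4.03% to 12.6% in KPH2 2 to KPH2 4, with overlap. The shares of P4ha1 also overlapped, at 48.3% to 70% in KP and 46.7% to 66.6% in KPH2 2 to KPH2 4. Within the lysyl oxidases of the set, a sum that leaves out Loxl4, Loxl2 took 17.8% to 30% in the 7 tumours and 4.57% in KPH2 1, where Loxl3 took 33.1%. Lox took 31.4% to 46.3% of the same sum in KP and 27.8% to 48.4% in KPH2 2 to KPH2 4, and Plod2 took 17.8% to 31.4% and 23.4% to 33.1% of the lysyl hydroxylases.

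**Figure D3:**
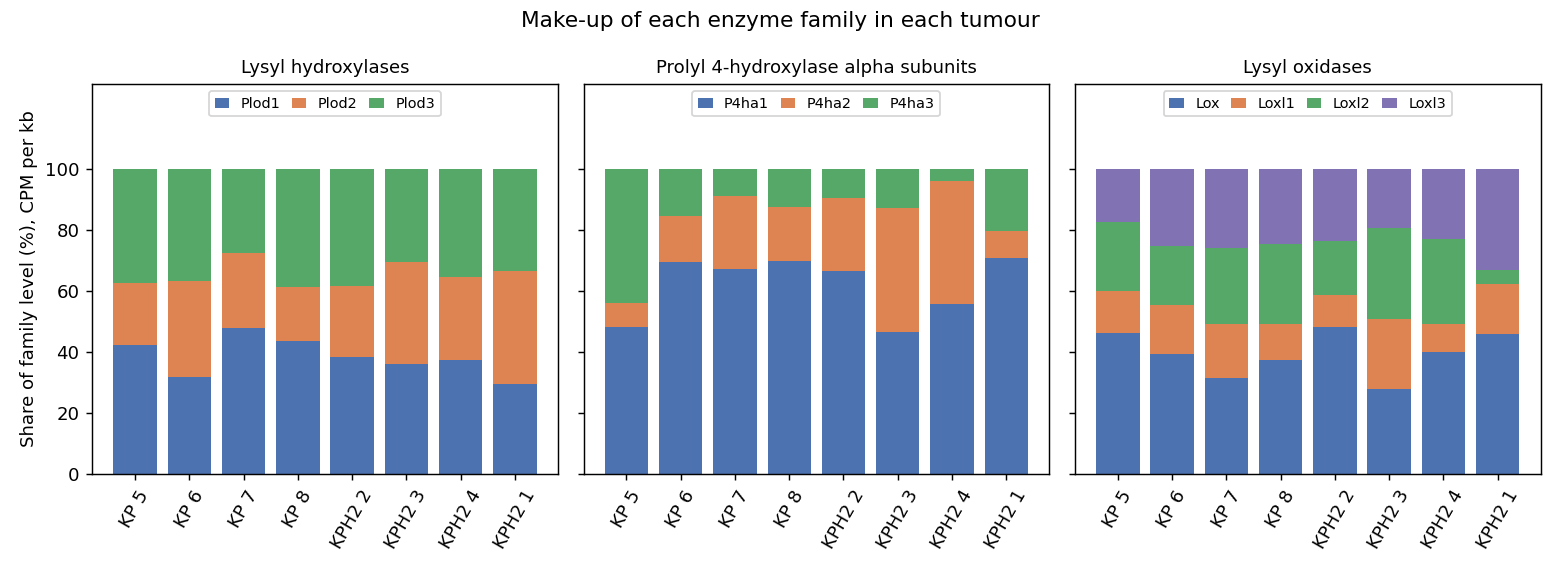
Share (%) of each gene in the summed level (CPM per kb) of its family in each of the 8 tumours, as stacked bars. The lysyl oxidase sum leaves out Loxl4. P4ha2 takes 23.9% to 40.7% of the P4HA family in KPH2 2 to KPH2 4 and 7.77% to 23.7% in KP tumours, and Loxl2 takes 4.57% of the lysyl oxidases in KPH2 1.

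The enzymes were also set against the level of type I collagen, a substrate of these enzymes. The sum of Col1a1 and Col1a2 was 12133.7, 3126.0, 7240.6 and 4055.4 CPM in KP 5 to KP 8 and 3870.2, 7080.1 and 2050.1 CPM in KPH2 2 to KPH2 4. Per 1000 CPM of type I collagen, Lox was at 63.6, 153, 63.4 and 120 CPM in KP 5 to KP 8 and at 82.8, 52.1 and 156 CPM in KPH2 2 to KPH2 4. On that scale Lox no longer separated the groups, and neither did Plod3 (10.4 to 41.3 CPM in KP, 14.2 to 47.8 CPM in KPH2 2 to KPH2 4) or Loxl3 (20.5 to 83.8 and 30.9 to 77 CPM). The sum itself ran from 2050.1 to 12133.7 CPM and overlapped between the groups, so a ratio to it can hide differences of the enzymes' size. Whether collagen level has a part in them was not tested. P4ha3 was at 3.5 to 10.3 CPM per 1000 in KP, at 2.19 to 5.05 CPM per 1000 in KPH2 2 to KPH2 4 and highest in KPH2 1, at 15.9. KP 5 had the most type I collagen and the least of 8 of the 10 enzymes per unit of it among KP tumours; the exceptions were P4ha3 and Lox.

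Among the genes that work beside these enzymes, none passed edgeR's adjusted threshold over the 7 tumours. Of 14 other genes of collagen making, most of them enzymes and chaperones of the endoplasmic reticulum, 2 had an unadjusted p under 0.05, both lower, where 9.26% of all genes did. DESeq2 called 1 of the 14, where it called 7.2% of all genes, and 11 had a negative log2 fold change, where 52% of all genes did, with a median of −0.15. Leprel2 (now P3h3), a prolyl 3-hydroxylase family member, had the smallest p: it was at 78.0, 57.6, 72.5 and 29.4 CPM in KP 5 to KP 8 and at 18.5, 31.6 and 13.9 CPM in KPH2 2 to KPH2 4, with overlap between KP 8 and KPH2 3 (log2 fold change −1.47, adjusted p = 0.11, edgeR). KPH2 1 at 70.5 CPM lay among the high KP tumours, and with it included Leprel2 was at −0.82 (adjusted p = 0.498, edgeR) and 0 of the 14 genes had an unadjusted p under 0.05, where 14.7% of all genes did in either direction over the 8 tumours. Crtap, a partner of the prolyl 3-hydroxylase P3h1, followed (−0.62, adjusted p = 0.16, edgeR). P4hb, the beta subunit shared by the 3 P4HA tetramers, had a log2 fold change of −0.32 (adjusted p = 0.401, edgeR). Among 7 tested genes of procollagen processing, 0 had an unadjusted p under 0.05 in edgeR, where 17.8% of all genes did in either direction, DESeq2 called 0, and the median was 0.28; the smallest p values were those of Pcolce2, an enhancer of procollagen C-proteinase (1.11, adjusted p = 0.317, edgeR), and Adamts2, the N-proteinase (0.91, adjusted p = 0.394, edgeR). Of 3 genes of copper delivery, 0 had an unadjusted p under 0.05 in edgeR (17.8% of all genes) and DESeq2 called 0, with a median of −0.06. Slc31a1, the copper importer, was at −0.38 (adjusted p = 0.342, edgeR) and the copper chaperone Atox1 at −0.06 (adjusted p = 0.926, edgeR).

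Partners of the lysyl oxidases had mostly negative differences. Of 8 genes (Loxl4 and elastic fibre and matrix genes), 7 had a negative log2 fold change, 4 had an unadjusted p under 0.05 in that direction, 0 passed the adjusted threshold of edgeR and 2 that of DESeq2 (all genes: 52% negative, 9.26% lower at an unadjusted p under 0.05, 1.96% past the adjusted threshold of edgeR and 7.2% past that of DESeq2), with a median of −0.76. Fbln5, the fibulin that binds Loxl1 on elastic fibres, was at 147.2, 73.3, 36.6 and 66.9 CPM in KP 5 to KP 8 and at 13.1, 30.3 and 14.0 CPM in KPH2 2 to KPH2 4. The groups did not overlap, although KPH2 1 at 46.5 CPM lay above KP 7 (log2 fold change −2.09, adjusted p = 0.0854, edgeR). Efemp2 (fibulin-4), which binds Lox, was at 118.2, 101.3, 88.2 and 130.7 CPM in KP 5 to KP 8 and at 63.8, 76.8 and 67.8 CPM in KPH2 2 to KPH2 4. No KPH2 tumour, KPH2 1 at 75.5 CPM included, reached the KP range (−0.66, adjusted p = 0.094, edgeR).

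Of 9 fibrillar collagen genes, 0 passed the adjusted threshold of edgeR (1.96% of all genes) or of DESeq2 (7.2%), 1 was higher and 1 lower at an unadjusted p under 0.05 in edgeR (8.5% and 9.26% of all genes), and 7, where 52% of all genes did, had a negative log2 fold change, with a median of −0.16. The smallest p values went in opposite directions, with Col11a2 at 1.39 (adjusted p = 0.144, edgeR; at most 8.41 CPM in any tumour) and Col5a3 at −0.87 (adjusted p = 0.213, edgeR). Of 20 hypoxia response genes, 0 passed the adjusted threshold of edgeR (1.96% of all genes) or of DESeq2 (7.2%), 3 were higher at an unadjusted p under 0.05 in edgeR (Car9, Pdk1 and Ldha, where 8.5% of all genes were), 11 had a positive and 9 a negative log2 fold change (52% of all genes were negative), and the median was 0.15. The smallest p values were those of Car9, a carbonic anhydrase (1.17, adjusted p = 0.184, edgeR), and Pdk1, which holds back pyruvate oxidation (0.84, adjusted p = 0.202, edgeR), both higher in KPH2. Beside Epas1, the HIF subunits Hif1a and Arnt also did not pass the adjusted threshold of edgeR, with Hif1a at −0.27 (adjusted p = 0.705, edgeR) and Arnt at −0.22 (adjusted p = 0.608, edgeR).

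The highest values fell in few tumours, while the lowest were more spread, with KPH2 4 the lowest for 3 of the 10 genes. KP 7 was the highest of the 8 for 6 of the 10 genes (Plod1, Plod2, Plod3, P4ha1, P4ha2 and Loxl3), KP 5 for P4ha3 and Lox, and KPH2 3 for Loxl1 and Loxl2. The mean log2 CPM of the 20 hypoxia response genes was 4.84, 5.63, 6.26 and 5.08 in KP 5 to KP 8, 6.35, 5.01 and 5.61 in KPH2 2 to KPH2 4 and 5.36 in KPH2 1. KP 7 and KPH2 2 thus had the highest hypoxia means and KP 5 and KPH2 3 the lowest. Members known to be induced in hypoxia did not follow a single order. P4ha1 was lowest within its group in KP 5 and in KPH2 3, Lox was highest in KP 5 and, among KPH2 tumours, in KPH2 3, and Plod2 was lowest among KPH2 tumours in KPH2 2. The mean over fibrillar collagens was highest in KPH2 3 (8.62) and KP 5 (8.51). The mean over muscle markers was also highest in KPH2 3 (8.11) and was 5.81 in KP 5. These are descriptions of 8 tumours, with no test.

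**Figure D4:**
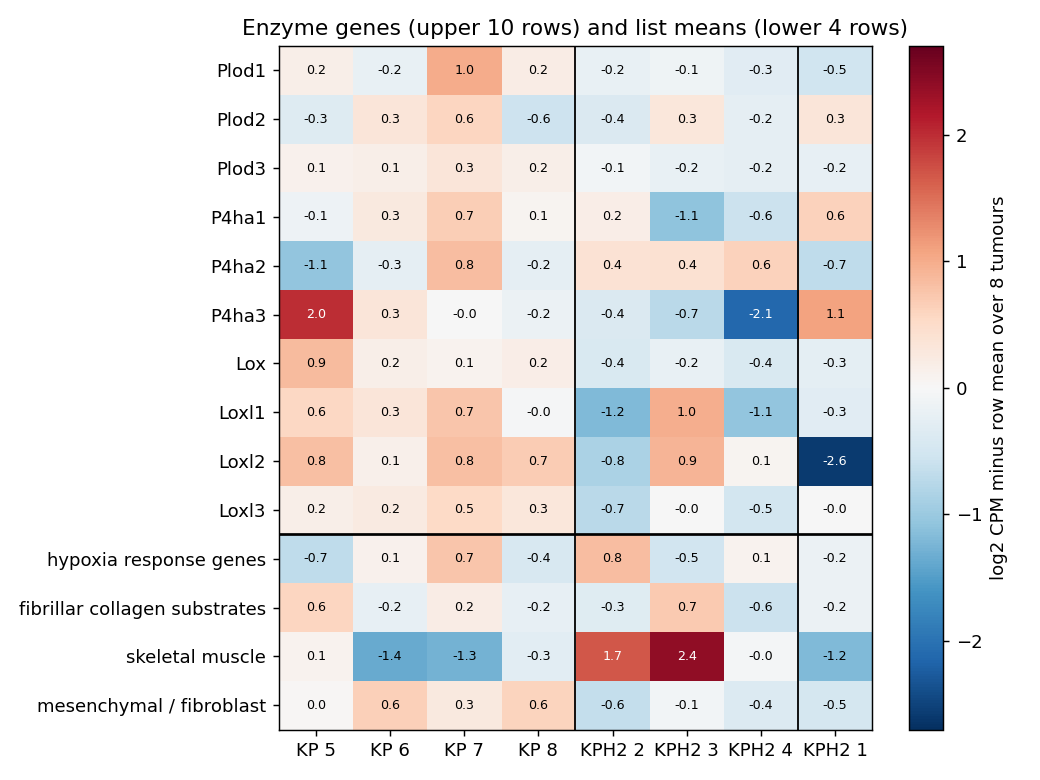
Log2 CPM of each of the 10 genes (upper 10 rows) and mean log2 CPM of 4 gene lists (lower 4 rows) in each tumour, each row minus its mean over the 8 tumours, with red for higher and blue for lower. P4ha3 peaks in KP 5, Loxl2 is lowest in KPH2 1, and Loxl1 and Loxl2 are high in KPH2 3, where the muscle mean reaches 8.11 log2 CPM.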

How the data were processed

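RNA from fixed, paraffin-embedded sections of 8 tumours was sequenced. Per the labels and the study's methods, reads were demultiplexed with CASAVA 1.8.2, aligned to GRCm38 with STAR 2.4 and counted per RefSeq gene with HTSeq 0.6.1, and the authors deposited these raw counts without normalization for all 8 tumours. The authors also deposited log2 values (rlog, DESeq2 1.6), scaled by size factors and shrunk at low counts, for 7 and for 8 tumours, which were used only in an alternative with limma 3.58.1. 

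Tests on counts used edgeR 4.0.16 in R 4.3.3 (TMM, minimum count 10, minimum total count 15, robust quasi-likelihood test, Benjamini-Hochberg adjustment over all tested genes, threshold 0.05). CPM used TMM library sizes over all 8 tumours, and log2 CPM a prior count of 2. Lengths are exon unions of GENCODE transcripts linked to RefSeq. Exact permutation tests were 2-sided, over 35 splits of 7 tumours. Members and lists were chosen with earlier results of these data known. Genes named are the 10 members, Epas1, Hif1a and Arnt, the 2 genes with the smallest p of each pathway list and any past the threshold, and the 3 genes most like the member of widest range. P4hb, Col1a1 with Col1a2, and Ldha are given beyond that rule, Ldha after its value was seen. Tumours are taken to come from separate mice. A further allele that both groups carry is not reported here. In simulated data with 200 genes changed by 2 log2 units among 14867, edgeR found 173 and wrongly called 11, and DESeq2 1.42.0 found 190 and wrongly called 54. Where nothing was changed, edgeR made 0 calls and DESeq2 made 18. The changed genes were drawn from those with higher counts, with dispersions estimated by edgeR. A change of 2 log2 units is larger than every member's estimate over the 7 tumours. These rates therefore do not show how often either tool finds differences of the members' size. Alternatives were all 8 tumours, other normalizations and filters, DESeq2, rlog values, the muscle score as a covariate, no robust estimates and leaving out each tumour.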

Additional observations from a re-analysis of the deposited data

Results flagged for a closer look

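In groups of 4 tumours, the highest or lowest tumour was compared with the others by Dixon's ratio (its gap to the nearest tumour over the whole range, critical value 0.829), for 13 genes and 26 groups. Chance gives about 1 in 20 groups. KP 5 stood apart for Lox, where it was the highest KP tumour (771.3 CPM, the others 459.3 to 486.2 CPM, ratio 0.89 on log2 CPM). KP 5 also stood apart for Epas1, where it was the lowest KP tumour (59.2 CPM, the others 83.2 to 86.9 CPM, ratio 0.887). Without KP 5 the log2 fold change of Lox was −0.49 (adjusted p = 0.117, edgeR).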

How the results depend on the processing

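No paired analysis was possible because the replicate numbers of KP (5 to 8) and KPH2 (1 to 4) are not shared. Under the 17 alternatives only Plod2 among the members changed sign, to 0.07 without KP 7 and 0.09 with the muscle score as a covariate. DESeq2 on the 7 tumours called P4ha3 (−1.72), Lox (−0.70), Loxl3 (−0.70) and Epas1 (−0.81), 3 of the 10 members and 1175 of all genes, and 1 gene of the endoplasmic reticulum list, 2 of the lysyl oxidase partners and 1 HIF subunit. DESeq2 over all 8 tumours, chosen after seeing the data, called Lox (−0.68) and Epas1 (−0.91), 1 of the members, 648 of all genes, 2 lysyl oxidase partners, 1 fibrillar collagen and 1 HIF subunit. edgeR called 1 gene over all 8 tumours and 4 with the muscle score as a covariate, against 292. The cause of these shifts was not tested.

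With 1 tumour left out, edgeR called 55 (without KPH2 2) to 349 (without KP 5) of all genes. It called 0 members except without KPH2 3, where it called 1 (Loxl1, −1.55), and 0 HIF subunits except without KP 5, where it called 1 (Epas1, −0.92). The log2 fold changes then ran from −0.72 to −0.27 for Plod1, −0.38 to 0.07 for Plod2, −0.42 to −0.32 for Plod3, −1.06 to −0.40 for P4ha1, 0.28 to 0.95 for P4ha2, −2.09 to −0.95 for P4ha3, −0.79 to −0.49 for Lox, −1.55 to −0.14 for Loxl1, −0.96 to −0.09 for Loxl2, −0.93 to −0.56 for Loxl3 and −0.96 to −0.71 for Epas1. Members with an unadjusted p under 0.05 numbered 2 without KPH2 4, and members without overlap numbered 4 to 7, with 7 without KPH2 3; both counts were chosen after seeing the data. With the muscle score as a covariate P4ha3 was at −3.36, Loxl1 at −1.68 and P4ha2 at 1.28, none past the threshold.

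With 4 and 3 tumours no exact permutation p can fall under 0.0286. The lowest count of a member in any tumour was 52.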
